A study of Homo sapiens with 4 samples.

Results

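Kinesins are the motor proteins that walk along or take apart microtubules, the polymers that vincristine attacks by binding tubulin. The genes described here are the kinesin motors of the deposited expression table, taken by name as KIF followed by a digit or KIFC followed by a digit. The pattern took 42 names, of which 4 were dropped, namely the antisense transcripts KIF9-AS1 and KIF25-AS1, the pseudogene KIF28P, and KIF1BP, which encodes a kinesin binding protein and no motor. The remaining 38 genes of the 18375 in the table were sorted by their known roles into 12 mitotic kinesins, 15 transport kinesins and 11 others. The series compared vincristine-resistant RD cells (2 libraries) with untreated parental RD cells (2 libraries). RD is an established line of fusion-negative rhabdomyosarcoma, a tumour of muscle lineage, and the labels call the genotype of both groups wild type. The resistant cells came from a starting dose of 1 to 1.5 nM vincristine, which killed about 80 to 90% of the cells, and from dose steps of 10 to 20% over 9 to 12 months, until the IC50 had risen at least 100-fold. The labels name vincristine as the treatment of the resistant cells, and give neither the drug level at harvest nor whether the cells are a pool or 1 clone. They also leave unstated whether the libraries of a group are separate cultures, so a p-value here measures the spread between libraries, which may be technical.

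Mitotic kinesins build and divide the spindle. Some slide antiparallel microtubules apart, some move chromosomes, some shorten microtubule ends, and others organise the central spindle at cytokinesis. Their transcripts are known to peak in G2 and mitosis, under the DREAM and MuvB complexes, which bind CHR elements, and under NF-Y, which binds CCAAT boxes. Transport kinesins carry vesicles, organelles and protein complexes through the cytoplasm, axons and cilia of cells in any phase of the cycle.

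Promoters of 9 members are printed because the values below turn on their genes and the classes differed in these elements. Each line runs 5′ to 3′ over 160 bases, from 150 before to 10 after the RefSeq start (GRCh38.p14). Capitals mark matches to TTTGAA, the core of the CHR element, or to CCAAT, on either strand, so that TTCAAA and ATTGG are their reverse complements. The first 6 are mitotic and the last 3 are transport kinesins.
KIF11: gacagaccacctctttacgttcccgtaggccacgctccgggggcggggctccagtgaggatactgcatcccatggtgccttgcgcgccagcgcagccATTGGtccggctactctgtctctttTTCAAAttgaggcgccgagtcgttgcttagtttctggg
KIF20A: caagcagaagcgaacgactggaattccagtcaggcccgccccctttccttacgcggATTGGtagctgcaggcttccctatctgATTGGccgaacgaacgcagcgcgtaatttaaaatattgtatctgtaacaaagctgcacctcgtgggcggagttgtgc
KIF23: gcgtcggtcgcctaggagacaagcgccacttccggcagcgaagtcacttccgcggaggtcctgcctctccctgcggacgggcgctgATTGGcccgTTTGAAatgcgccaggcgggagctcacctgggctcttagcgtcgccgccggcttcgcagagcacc
KIF18A: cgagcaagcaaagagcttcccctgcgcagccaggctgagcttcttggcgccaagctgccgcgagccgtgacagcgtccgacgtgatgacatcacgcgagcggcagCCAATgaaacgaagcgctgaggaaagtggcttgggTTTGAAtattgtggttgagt
KIF4A: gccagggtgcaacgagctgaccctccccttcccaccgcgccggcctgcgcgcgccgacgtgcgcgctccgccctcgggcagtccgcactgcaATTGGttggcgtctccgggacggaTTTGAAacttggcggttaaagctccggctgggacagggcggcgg
KIFC1: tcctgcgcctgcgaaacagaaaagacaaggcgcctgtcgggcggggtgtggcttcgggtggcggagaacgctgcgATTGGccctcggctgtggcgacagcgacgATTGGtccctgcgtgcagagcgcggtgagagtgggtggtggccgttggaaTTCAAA
KIF3C: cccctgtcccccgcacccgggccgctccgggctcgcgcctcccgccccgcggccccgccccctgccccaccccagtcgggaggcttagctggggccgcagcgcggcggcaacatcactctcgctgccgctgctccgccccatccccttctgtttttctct
KIF1C: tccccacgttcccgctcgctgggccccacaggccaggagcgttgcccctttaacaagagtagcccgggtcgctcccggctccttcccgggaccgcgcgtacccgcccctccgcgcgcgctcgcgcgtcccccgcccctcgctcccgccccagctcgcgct
KIF5B: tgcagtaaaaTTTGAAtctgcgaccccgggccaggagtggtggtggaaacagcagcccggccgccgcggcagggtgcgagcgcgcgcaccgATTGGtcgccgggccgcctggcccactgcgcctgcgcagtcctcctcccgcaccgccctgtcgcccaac

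These windows are KIF11 chr10:92592980-92593139 (plus strand), KIF20A chr5:138178962-138179121 (plus strand), KIF23 chr15:69414199-69414358 (plus strand), KIF18A chr11:28108147-28108306 (minus strand), KIF4A chrX:70289954-70290113 (plus strand), KIFC1 chr6:33391673-33391832 (plus strand), KIF3C chr2:25982488-25982647 (minus strand), KIF1C chr17:4997800-4997959 (plus strand) and KIF5B chr10:32056416-32056575 (minus strand). Of the 38 members, 30 had a promoter in the RefSeq table (250 bases before to 50 after the start). A CHR core stood in 9 of 12 mitotic kinesins and in 1 of 11 transport kinesins, KIF5B, and in none of 7 others. A CCAAT box stood in 10 of 12 mitotic, 4 of 11 transport and 2 of 7 other kinesins. Both stood in the same window in 8 mitotic kinesins, which were KIF11, KIF20B, KIF23, KIF14, KIF18A, KIF4A, KIF18B and KIFC1. Over all 35116 promoters of the table, 15.2% held the CHR core, 34.6% the CCAAT box and 5.90% both. Counted by gene over 11471 genes that were also tested for expression, the shares were 13.9, 42.6 and 5.76%. Among 20 partners of mitotic kinesins with a promoter, 12 held the CHR core, 14 the CCAAT box and 11 both. The distance between the CHR core and the nearest CCAAT box was 9 bases in KIF23, 25 in KIF11, 24 in KIF4A, 23 in KIF14, 34 in KIF18B, 35 in KIF18A, 50 in KIFC1 and 122 in KIF20B. In KIF5B the order was turned round, with the CHR core 81 bases farther from the start than the CCAAT box. KIF20A and KIF22 held CCAAT boxes without this CHR core, KIF15 the CHR core alone, and KIF2C neither. A match describes these letters and says nothing of a bound factor. The median G and C content was 69.7% in promoters of transport kinesins and also of the other kinesins. It was 62.2% in mitotic kinesins and 64.7% over the genes that were also tested for expression.

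**Figure D1:**
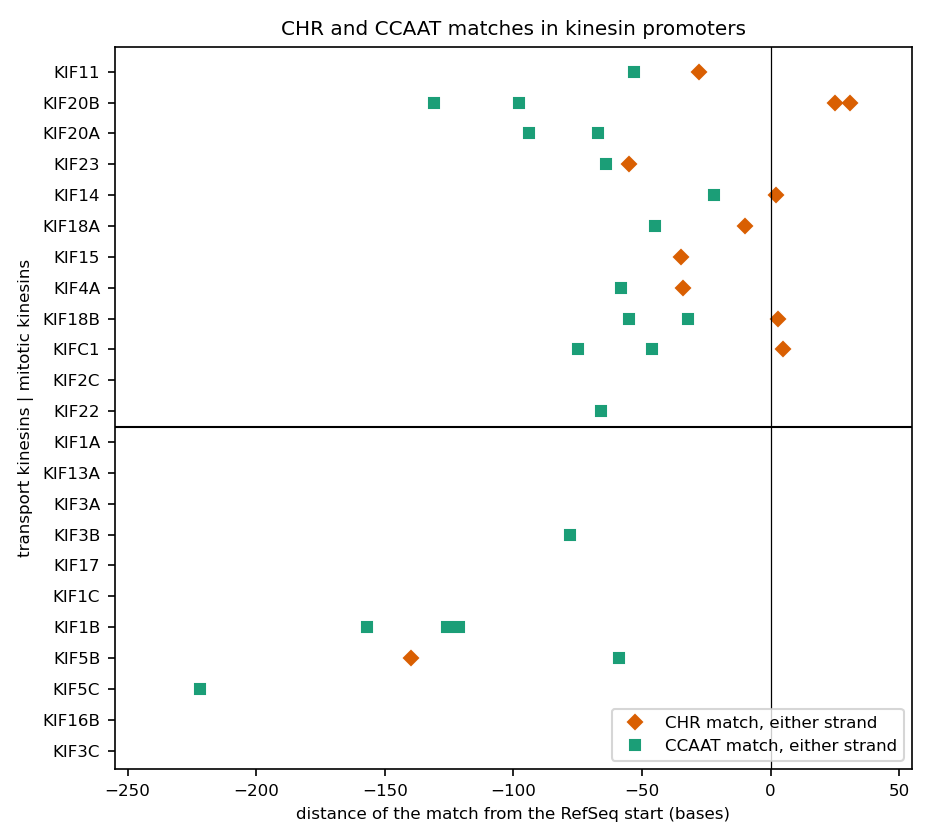
Distance in bases of each CHR (diamonds) and CCAAT (squares) match from the RefSeq start, for the 12 mitotic kinesins above the line and the 11 transport kinesins with a promoter below it (for a gene with several promoters, from the start of each). CHR matches lie between -55 and 31 in 9 mitotic kinesins, and the only one among transport kinesins is at -140 in KIF5B.

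The 4 libraries held 58861281 to 67690557 reads over the genes of the table, of which 172600 to 194391 (0.278 to 0.293%) fell on kinesins. Values are the authors' normalized counts, in which gene counts are divided by one size factor per library. Changes are log2 fold changes of resistant over parental cells on log2(value + 1), tested with limma, and a gene is called higher or lower at a Benjamini-Hochberg adjusted p below 0.05 over all 18330 genes tested. A fold change is followed by ± its standard error from limma. Of the muscle markers, 10 of 12 were among the genes analysed, and 9 of them were higher, beside 32.7% of all genes tested. The 10 had a median log2 fold change of 0.65 and a summed level of 192406 and 197206 normalized counts in resistant and 104434 and 104394 in parental libraries. They included PAX7 (3.58 ± 0.054), a marker of muscle stem cells, cardiac actin ACTC1 (1.49 ± 0.028) and desmin DES (1.46 ± 0.028). MYOD1, the myogenic regulator, was the one not called, at 15213 and 16685 in resistant cells against 16936 and 16241 in the parental line. Tested against a change of 1.2-fold (limma treat), 7 muscle markers were higher, beside 18.4% of all genes. With the median of the 10 nearest tested genes on each side subtracted, 7 were higher and 1 lower, beside 31.5% and 33.2% of all genes. Of 5 blood cell markers CD14 alone was among the genes analysed (34.6 and 49.6 in resistant libraries against 29.97 and 28.8 in parental libraries), and of 4 endothelial markers none. Of 5 epithelial markers 4 were higher and 1 was not called, with a summed level of 14722 and 14925 in resistant and 4826 and 4804 in parental libraries, most of it KRT18, a keratin that many cell lines make. Against 1.2-fold, 2 epithelial markers were higher. The part of these markers in the kinesin values was not tested.

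Mitotic kinesins rose and transport kinesins fell in the resistant cells. Of the 38 kinesins, 21 were higher and 15 lower, so that 36 were called, where 66.9% of all genes tested were called, 32.7% higher and 34.2% lower. All 12 mitotic kinesins rose, with a median log2 fold change of 0.59 against 0.0043 over all genes tested, and with single genes from 0.21 to 1.12. Of the 15 transport kinesins, 12 fell, 1 rose and 2 were not called, with a median of -0.69 and a range from -1.53 to 0.19. The 11 other kinesins held 8 that rose and 3 that fell (median 0.66). In bulk RNA, a change in the share of cells that express a gene and a change in RNA per cell cannot be told apart.

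The medians of the mitotic and transport classes differed by 1.28. Within single libraries, the mitotic minus the transport median of log2 values, each gene centred on its mean over libraries, was 0.67 and 0.58 in resistant and -0.62 and -0.64 in parental libraries. The smallest mitotic value (KIF22, 0.21) lay just above the largest transport value (KIF1A, 0.19). This order depends on how the genes were sorted, and would not hold with KIF2A (0.18) counted as mitotic. KIF2A, a depolymerase of spindle poles that also acts in neurons, was placed among the others. Since many genes were called, stricter counts were made as well. Tested against a change of 1.2-fold (limma treat), 28 kinesins were called beside 37.1% of all genes, with 10 mitotic kinesins higher (18.4% of all genes) and 10 transport kinesins lower (18.6%). With an edgeR dispersion fixed at 0.01, which stands for more spread than these libraries show, the same 28 were called beside 43.3% of all genes (22.2% higher and 21.2% lower). The 8 whose calls ended under both were KIF2C, KIF22, KIF1A, KIF3A, KIF5A, KIF2A, KIF7 and KIF9.

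By size, 6 mitotic kinesins were called at least 1.5-fold higher (15.5% of all genes) and 2 at least 2-fold higher (8.96%), while 9 transport kinesins were at least 1.5-fold lower (13.8%) and 3 at least 2-fold lower (6.57%). The libraries of the groups did not overlap for 37 of the 38 kinesins, where 82.1% of all genes did not overlap, 41.0% being higher and 41.1% lower. These were all 12 mitotic kinesins, higher, 13 transport kinesins lower and KIF1A higher, and the 11 others. KIFC2 was the one member whose groups overlapped.

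**Figure D2:**
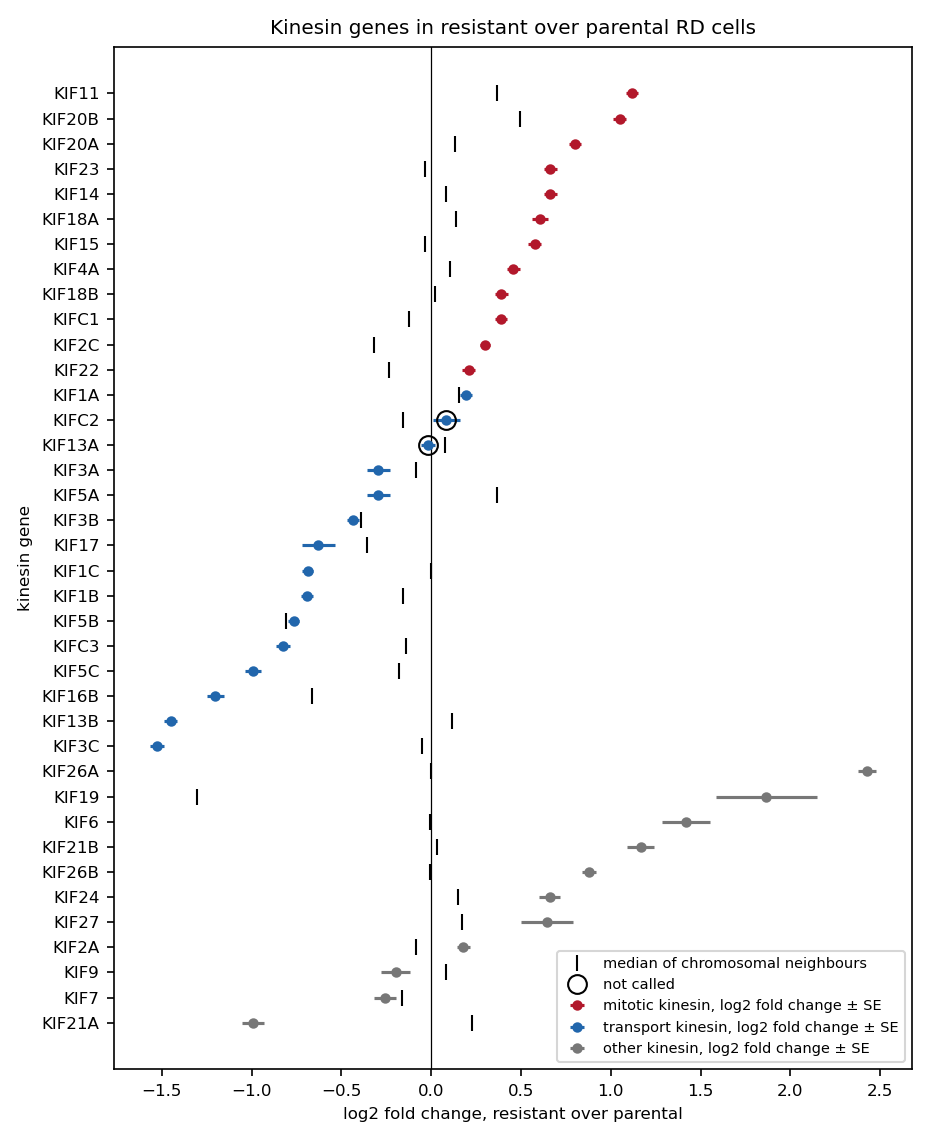
Log2 fold change of resistant over parental cells (points, ± SE from limma, n = 2 libraries per group) for the 38 kinesin genes by class, with the median of the 20 nearest tested genes on the chromosome as a black tick. All mitotic values are above 0.2, transport values reach -1.53 (KIF3C), and 2 circled genes were not called.

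Among the mitotic motors, the largest rise was that of KIF11 (Eg5), the tetrameric motor that pushes spindle poles apart. KIF11 had 17645 and 16410.0 normalized counts in the resistant libraries, against 7771 and 7930.3 in the parental ones, a log2 fold change of 1.12 ± 0.034, limma adjusted p = 1.35e-20. Both resistant libraries lay far above both parental ones. KIF15, a kinesin-12 that can hold the spindle bipolar when KIF11 is inhibited, had 5037 and 4988 normalized counts in resistant cells against 3385 and 3337 in the parental line, a log2 fold change of 0.58 ± 0.037, limma adjusted p = 1.95e-13. KIFC1 (HSET), the minus-end-directed motor that focuses poles and clusters extra centrosomes, had 8169.8 and 8292 normalized counts in resistant libraries against 6382 and 6185 in parental libraries, a log2 fold change of 0.39 ± 0.034, limma adjusted p = 7.18e-11. KIF11 changed most of these 3. In none of them did the groups overlap, where 41.0% of all genes tested were higher without overlap.

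The 3 kinesin-6 motors, which work at the central spindle and midbody, all rose. KIF20B (MPP1), a motor of cytokinesis, had 8597 and 8244 normalized counts in the resistant libraries, against 3951 and 4183 in the parental ones (log2 fold change 1.05 ± 0.037, limma adjusted p = 3.99e-19). KIF20A (MKLP2), which brings the chromosomal passenger complex to the central spindle, had 11148 and 10970.2 normalized counts in resistant cells against 6238 and 6469 in the parental line (log2 fold change 0.80 ± 0.033, limma adjusted p = 1.13e-17). KIF23 (MKLP1), the motor of centralspindlin, had 8175 and 7968 normalized counts in resistant libraries against 5086 and 5099 in parental libraries (log2 fold change 0.66 ± 0.034, limma adjusted p = 1.30e-15). The parental libraries of KIF23 were almost equal and both resistant ones were higher. KIF14, a kinesin-3 that recruits citron kinase to the midbody and the one mitotic member of its subfamily, had 8185 and 7827 normalized counts in the resistant libraries, against 5068 and 5042 in the parental ones (log2 fold change 0.66 ± 0.035, limma adjusted p = 2.34e-15). RACGAP1, the partner of KIF23 in centralspindlin, rose by 0.29 ± 0.033 on the log2 scale, a call that ended against 1.2-fold (limma treat adjusted p = 0.452) and with the dispersion of 0.01. PRC1, the microtubule crosslinker of the central spindle, rose by 0.48 ± 0.031 and was called in both.

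Motors of chromosomes and of microtubule ends rose by 0.21 to 0.60 on the log2 scale. KIF18A, which damps chromosome oscillation at the metaphase plate, had 4491 and 4044 normalized counts in resistant cells against 2852 and 2758 in the parental line (log2 fold change 0.60 ± 0.045, limma adjusted p = 3.42e-12), and its resistant libraries differed by 10.5% of their mean, the most of any mitotic kinesin in that group. KIF18B, which shortens astral microtubules, had 4777 and 4814 normalized counts in resistant libraries against 3714 and 3602 in parental libraries (log2 fold change 0.39 ± 0.038, limma adjusted p = 6.02e-10). The chromokinesin KIF4A, which binds chromosome arms and the central spindle, had 7294 and 7037 normalized counts in the resistant libraries, against 5209 and 5221 in the parental ones (log2 fold change 0.46 ± 0.035, limma adjusted p = 5.21e-12). KIF4A has a near-identical intronless copy, KIF4B, and reads of the pair could be shared, which leaves its level uncertain. KIF2C (MCAK), a kinesin-13 that removes tubulin from microtubule ends at centromeres, had 13354 and 13357 normalized counts in resistant cells against 10899.9 and 10798 in the parental line (log2 fold change 0.30 ± 0.03, limma adjusted p = 1.43e-09). KIF22 (Kid), which pushes chromosome arms away from the poles, had 7579 and 7922 normalized counts in resistant libraries against 6713 and 6703 in parental libraries (log2 fold change 0.21 ± 0.034, limma adjusted p = 5.58e-06). For these last 2 the groups did not overlap, yet a change above 1.2-fold was not called (treat adjusted p = 0.255 for KIF2C and 1.00 for KIF22). An antisense gene covers 13.01% of the exonic bases of KIF22 and the pseudogene RPL12P1 12.7% of those of KIFC1, on the opposite strand, and the strand setting of the counting is not known here.

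Transport kinesins fell across subfamilies, and the kinesin-2 motor KIF3C, which is best known from neurons, fell most. KIF3C had 2579 and 2639 normalized counts in the resistant libraries, against 7571 and 7475 in the parental ones, a log2 fold change of -1.53 ± 0.037, limma adjusted p = 9.20e-23. The other kinesin-2 genes fell less. KIF3B and KIF3A, which pair with the adaptor KAP3 in the motor that drives intraflagellar transport, were both lower. KIF3B had 5762 and 5755 normalized counts in resistant cells against 7804 and 7763 in the parental line (log2 fold change -0.43 ± 0.033, limma adjusted p = 6.61e-12), and the median of its chromosomal neighbours was -0.39. KIF3A had 1055 and 948 normalized counts in resistant libraries against 1177 and 1277 in parental libraries (log2 fold change -0.29 ± 0.063, limma adjusted p = 1.82e-04). KIFAP3, the gene of KAP3, had a log2 fold change of -0.26 ± 0.054, limma adjusted p = 1.28e-04. Of these 3 subunits KIF3A and KIFAP3 were not called lower against 1.2-fold or with the dispersion of 0.01, and KIF3B was not called once its neighbours were subtracted. KIF17, a homodimeric kinesin-2 of cilia and dendrites, had 291 and 271 normalized counts in the resistant libraries, against 438 and 431 in the parental ones (log2 fold change -0.63 ± 0.093, limma adjusted p = 1.26e-06).

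All 3 heavy chains of conventional kinesin (kinesin-1) fell. KIF5B, the heavy chain that most tissues use, had 12049 and 11429 normalized counts in resistant cells against 19839 and 20103 in the parental line, a log2 fold change of -0.77 ± 0.031, limma adjusted p = 8.17e-18. KIF5C, a heavy chain enriched in neurons, had 1593 and 1559 normalized counts in resistant libraries against 3164 and 3104 in parental libraries (log2 fold change -0.99 ± 0.045, limma adjusted p = 7.61e-17). KIF5A, mutated in hereditary spastic paraplegia, had 810.5 and 903 normalized counts in the resistant libraries, against 1081 and 1018 in the parental ones (log2 fold change -0.29 ± 0.065, limma adjusted p = 2.70e-04). In each of the 3 genes both resistant libraries lay below both parental ones, as they did in 41.1% of all genes tested. The chromosomal neighbours of KIF5B had a like median of -0.81. The light chain genes, whose proteins bind cargo, were KLC2, which was lower (-0.92 ± 0.047), and KLC1 (-0.036 ± 0.042) and KLC4 (-0.081 ± 0.057), which were not called.

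Kinesin-3 carriers of vesicles and endosomes split. KIF13B (GAKIN), a carrier of membrane scaffold proteins and receptors, had 3761 and 3759 normalized counts in resistant cells against 10559 and 10021 in the parental line, a log2 fold change of -1.45 ± 0.035, limma adjusted p = 1.15e-22. KIF16B, which moves early endosomes, had 1248 and 1316 normalized counts in resistant libraries against 2927 and 2979 in parental libraries (log2 fold change -1.204 ± 0.047, limma adjusted p = 4.46e-18). These 2 had the largest falls of the subfamily. KIF1B, a carrier of mitochondria and synaptic vesicle precursors, had 6259.9 and 6438 normalized counts in the resistant libraries, against 10398 and 10147 in the parental ones (log2 fold change -0.69 ± 0.033, limma adjusted p = 2.61e-16). KIF1C, a fast carrier of vesicles and integrins, had 11359.8 and 11972 normalized counts in resistant cells against 18754 and 18844 in the parental line (log2 fold change -0.69 ± 0.031, limma adjusted p = 8.55e-17). All 4 fell without overlap between groups, beside 41.1% of all genes tested. KIF1A, the neuronal carrier of synaptic vesicle precursors, was the only transport kinesin called higher, at 9357 and 9875 normalized counts in resistant libraries against 8479.9 and 8327 in parental libraries (log2 fold change 0.19 ± 0.034, limma adjusted p = 1.25e-05). KIF13A, which carries endosomes and mannose 6-phosphate receptors, had 3006 and 2948 normalized counts in the resistant libraries, against 3012 and 3020.2 in the parental ones and was not called (log2 fold change -0.019 ± 0.041, limma adjusted p = 0.703, with a 95% interval of -0.10 to 0.065). Of the kinesin-14 genes in this class, KIFC3, a minus-end-directed motor of cell junctions and Golgi, fell to 3048 and 3226 normalized counts in resistant cells against 5654 and 5469 in the parental line (log2 fold change -0.83 ± 0.039, limma adjusted p = 2.69e-16). KIFC2, a minus-end-directed motor described in neurons, had 687 and 813 normalized counts in resistant libraries against 696 and 715 in parental libraries and was not called (log2 fold change 0.084 ± 0.075, limma adjusted p = 0.337), and FOXH1 on the opposite strand covers 17.8% of its exonic bases. Without resistant replicate 1, KIFC2 was called higher at 0.21. Of 5 neuronal markers analysed, SNAP25 was higher (2.15 ± 0.16), GAD1 (-2.23 ± 0.14), STMN2 (-0.65 ± 0.16) and SYT1 (-0.14 ± 0.049, a call that ended in 8 of 18 alternatives) lower and SYN1 (-0.38 ± 0.23) not called, with a summed level of 2352 and 2186 in resistant and 2590.1 and 2586 in parental libraries, and their part in the neuronal kinesin values was not tested.

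**Figure D3:**
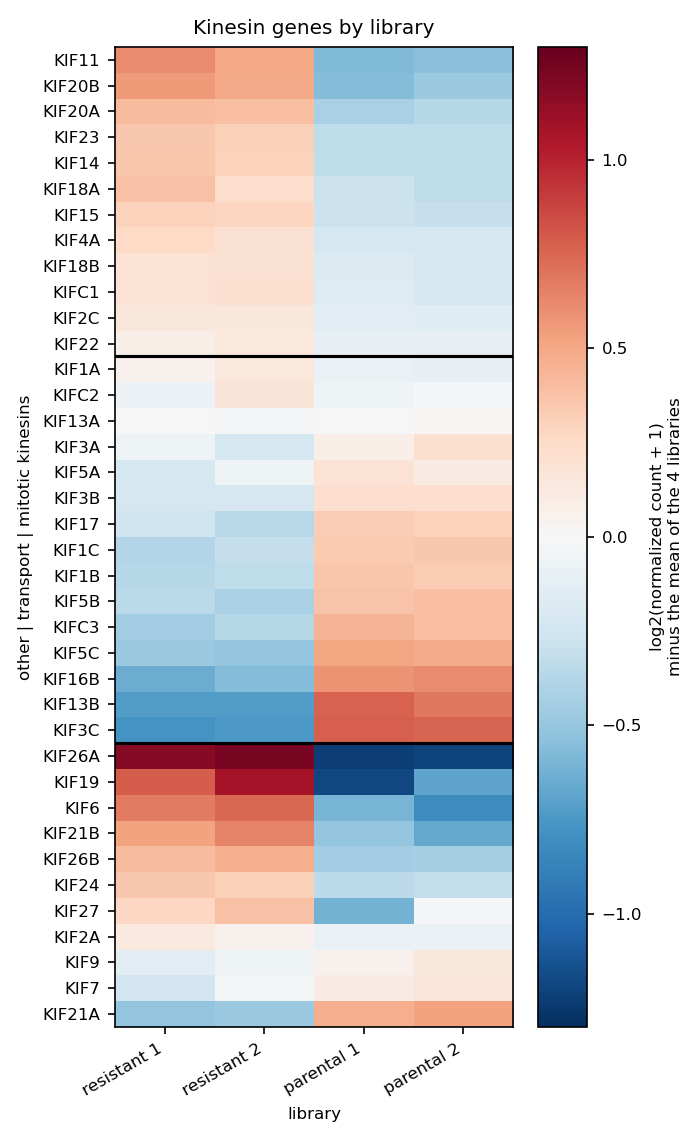
Each kinesin gene (rows) in each library (columns), as log2(normalized count + 1) minus the gene's mean over the 4 libraries. Mitotic kinesins (top block) are above their mean in both resistant libraries, and most transport kinesins (middle block) are below it.

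The other kinesins held the largest rises of the family. KIF26A, an atypical kinesin without motor activity that in mouse restrains GDNF signalling in enteric neurons, had 3517 and 3638 normalized counts in the resistant libraries, against 660.3 and 670.1 in the parental ones, a log2 fold change of 2.43 ± 0.05, limma adjusted p = 3.80e-24. Its paralog KIF26B, which acts in kidney development in mouse, had 4653 and 4838 normalized counts in resistant cells against 2565 and 2592 in the parental line (log2 fold change 0.88 ± 0.04, limma adjusted p = 7.85e-17). KIF21B and KIF21A, kinesin-4 proteins that restrain microtubule growth, moved in opposite directions. KIF21B had 896 and 977 normalized counts in resistant libraries against 441 and 394 in parental libraries (log2 fold change 1.17 ± 0.077, limma adjusted p = 2.85e-13). KIF21A had 636 and 649 normalized counts in the resistant libraries, against 1256 and 1302 in the parental ones (log2 fold change -0.99 ± 0.062, limma adjusted p = 8.09e-14). Per kilobase of exon, counted over the union of annotated isoforms, the order of the pair differed between groups. KIF21A stood at 63.5 in resistant and 126 in parental cells, and KIF21B at 77.1 in resistant and 34.3 in parental cells. The comparison of the 2 genes depends on these lengths.

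KIF6 and KIF19, both linked to cilia in mouse, rose and had the lowest levels of the family per kilobase. KIF6 had 266 and 281 normalized counts in resistant cells against 109 and 94.4 in the parental line (log2 fold change 1.42 ± 0.13, limma adjusted p = 3.71e-10). KIF19, which shortens cilia in mouse, had 59.5 and 73.5 normalized counts in resistant libraries against 14.5 and 20.9 in parental libraries (log2 fold change 1.87 ± 0.28, limma adjusted p = 1.62e-06), from 132 reads over both resistant and 36 over both parental libraries. Its read ratio was 3.79, with an exact 95% binomial interval of 2.61 to 5.65 that covers counting error only. KIF24, a kinesin-13 that holds back cilium formation at the centriole, had 1363 and 1331 normalized counts in the resistant libraries, against 847 and 858 in the parental ones (log2 fold change 0.66 ± 0.057, limma adjusted p = 8.75e-11). KIF27 rose too (0.64 ± 0.15), at 239 and 259 normalized counts in resistant libraries against 130 and 195 in parental libraries. These parental libraries differed by 40.3% of their mean. The antisense genes AL354733.1 and AL354733.2 cover 6.77% and 8.58% of the exonic bases of KIF27. KIF27 is a paralog of the Hedgehog regulator KIF7, which was lower (-0.26 ± 0.061, with TICRR over 11.8% of its exonic bases). KIF2A, a kinesin-13 depolymerase of spindle poles and neurons, rose by 0.18 ± 0.036 on the log2 scale, and IPO11 on the same strand covers 8.97% of its exonic bases. KIF9, another kinesin of motile cilia, had 435 and 462 normalized counts in resistant cells against 498 and 531 in the parental line and a log2 fold change of -0.20 ± 0.082, limma adjusted p = 0.0358. In the authors' deposited table KIF9 was not called (deposited adjusted p = 0.171), whereas the other 35 called members were called there with the same sign. The call of KIF9 ended in 9 of 18 alternatives, namely without resistant replicate 1, parental replicate 1 or parental replicate 2 (log2 fold change -0.15, -0.24 and -0.15), under both other scalings, DESeq2 and the correction for GC content and length, and under both stricter tests. KIF9-AS1 covers 14.9% of the exonic bases of KIF9 on the opposite strand. Of 6 motile cilia markers analysed, 1 was higher, 1 lower and 4 not called (DNAH11 -0.41 ± 0.30), beside 32.7% of all genes higher and 34.2% lower. FOXJ1, the master regulator of motile cilia, was higher (0.74 ± 0.27), but only 0.46 without resistant replicate 2. With its neighbours' median subtracted FOXJ1 had 2.05, and it was not called against 1.2-fold (limma treat adjusted p = 0.108). CCDC40, an axoneme protein, was lower (-1.202 ± 0.073, but 0.11 with its neighbours' median subtracted). The summed level of the 6 markers was 724 and 816 in resistant and 1406 and 1454 in parental libraries. The part of these markers in the kinesin values was not tested.

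Kinesins are also grouped by descent into numbered subfamilies, and in several of these all members were called in the same direction. All members of kinesin-1 (3 genes) and kinesin-2 (4 genes) fell. All of kinesin-6, kinesin-8 and kinesin-13 (3 genes each) rose, as did KIF26A and KIF26B of kinesin-11. Beside them, 32.7% of all genes tested were called higher and 34.2% lower. Sizes differed within a subfamily, from -1.53 to -0.29 in kinesin-2. Against 1.2-fold, KIF5A, KIF3A, KIF2A and KIF2C were not called. With the neighbour median subtracted, KIF5B (0.039) and KIF3B (-0.044) were not called. Every member of kinesin-6, kinesin-8 and kinesin-11 stayed called in both. Kinesin-3 and kinesin-14 hold motors of both classes. In kinesin-3, the mitotic KIF14 had 0.66 and the 6 transport members ranged from -1.45 to 0.19. In kinesin-14, the mitotic KIFC1 had 0.39, KIFC2 0.084 and KIFC3 -0.83. Kinesin-4 was mixed, with KIF4A, KIF21B and KIF27 higher and KIF7 and KIF21A lower. Kinesin-9 was split as well, with KIF6 higher (1.42) and KIF9 lower (-0.20).

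Per kilobase of exon, the family shifted towards mitotic motors. The summed level of the 12 mitotic kinesins was 22249 ± 331 in resistant and 14866 ± 11.7 in parental cells (normalized counts per kb, SD, n = 2 libraries per group), and that of the 15 transport kinesins 7427 ± 40.1 in resistant and 12224 ± 34.6 in parental cells. Mitotic kinesins made up 68.3% of the summed kinesin level in resistant and 50.9% in parental cells. These sums were not corrected for chromosomal neighbours, whose median was -0.81 for KIF5B (3398 in parental and 1997 in resistant cells). With the neighbour median subtracted, KIF5B and KIF3B were no longer called, while KIF11 and KIF20B stayed higher. The total over all 38 genes differed less, at 32582 ± 271 in resistant and 29229 ± 20.0 in parental cells. In resistant cells the order was led by KIF2C (3663), KIF11 (3504) and KIF20A (2794), with KIF5B the fifth. In parental cells it was led by KIF5B (3398), KIF2C (2976) and KIF1C (2191), with KIF11 the fifth. The highest of the other kinesins was KIF2A in both groups, at 1265 in resistant and 1118 in parental cells. Exon length is the union over annotated isoforms, so levels of genes with many isoforms are understated.

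**Figure D4:**
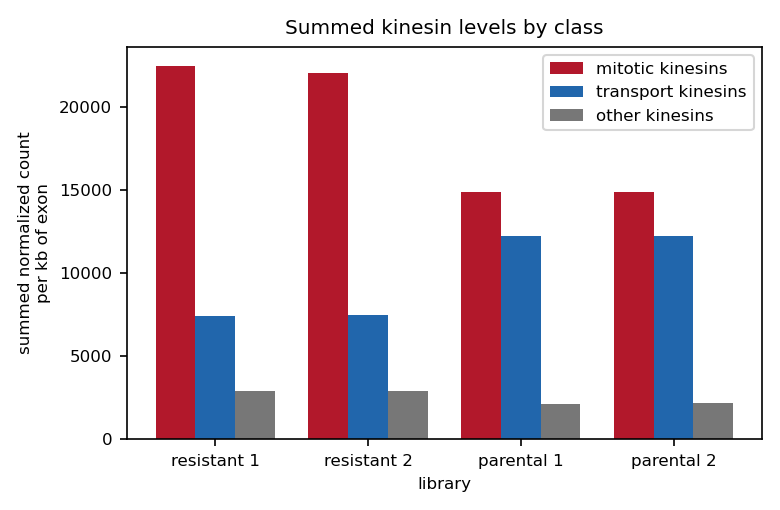
Summed normalized count per kilobase of exon over the mitotic, transport and other kinesins in each library (bars from 0). Mitotic sums are 22483 and 22015 in the resistant against 14874 and 14858 in the parental libraries, and transport sums are lower in the resistant ones.

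Genes that work with these motors were counted in the same fit, in which 32.7% of all genes were higher and 34.2% lower. Of 22 partners and regulators of mitotic kinesins, 18 rose, 2 fell and 2 were not called, with a median log2 fold change of 0.40. CDK1, the kinase that drives mitosis, had 13391 and 11965 normalized counts in resistant libraries against 5461 and 5565 in parental libraries (log2 fold change 1.199 ± 0.039, limma adjusted p = 7.98e-20), and NUSAP1, a spindle crosslinker, rose by 0.84 ± 0.032. With the median of their chromosomal neighbours subtracted, CDK1 had 0.66 and NUSAP1 0.93. CENPE, the kinesin-7 of kinetochores, which the name pattern does not take, had 8436 and 7752 normalized counts in the resistant libraries, against 4784 and 4750.0 in the parental ones (log2 fold change 0.76 ± 0.038, limma adjusted p = 7.16e-16). KPNA2, the importin alpha that holds back spindle assembly factors, fell (-0.81 ± 0.027, but 0.58 with the median of its chromosomal neighbours subtracted), and so did MAPRE1 (EB1), which tracks growing microtubule ends (-0.30 ± 0.028, but 0.10 and called higher with its neighbours' median subtracted, and not called against 1.2-fold). Of 18 cargo adaptors and regulators of transport kinesins, 5 rose, 6 fell and 7 were not called (median -0.035). KLC2, MAPK8IP2 (-1.98 ± 0.11), a JIP scaffold that binds kinesin light chains, and FEZ2 (-0.57 ± 0.038), a kinesin-1 adaptor, were lower. Of 27 genes of dynein and dynactin, which move cargo towards microtubule minus ends, 12 rose, 9 fell and 6 were not called (median 0.066), with DCTN1, the largest dynactin subunit, lower at -0.41 ± 0.028 and the dynein light chain genes DYNLRB1 and DYNLT1 lower at -0.52 ± 0.035 and -0.52 ± 0.038, of which DYNLRB1 was not called once its neighbours were subtracted (-0.029, limma adjusted p = 0.486). Of 24 genes of intraflagellar transport and Hedgehog output, 12 rose, 8 fell and 4 were not called (median 0.13), with GLI3, a Hedgehog transcription factor, higher at 1.56 ± 0.037. IFT80 and IFT27, subunits of the IFT-B train, were higher at 1.02 ± 0.071 and 4.30 ± 0.30, and IFT27 stood at 155 and 173 normalized counts in resistant cells against 4.83 and 10.9 in the parental line. Tested against 1.2-fold, 2 dynein and dynactin genes were higher and 5 lower, and no intraflagellar transport gene was lower, beside 18.4% of all genes higher and 18.6% lower. Of 14 proliferation markers 12 rose and 2 fell (median 0.29). Among them were TOP2A (1.60 ± 0.03), MKI67 (1.34 ± 0.028) and MCM2 (0.61 ± 0.029), which rose, and the mitotic kinase gene AURKA (-0.16 ± 0.03, not called against 1.2-fold) and LIN54 (-0.49 ± 0.049), the CHR-binding subunit of MuvB, which fell. With the median of their chromosomal neighbours subtracted, TOP2A had 0.73, MKI67 0.93, MCM2 0.82, AURKA -0.12 and LIN54 -0.33. Against 1.2-fold, 6 of the 14 markers were higher and 1 lower. Their summed level was 208144 and 207116 in resistant and 135756 and 136404 in parental libraries, and their part in the rise of mitotic kinesins was not tested.

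**Figure D5:**
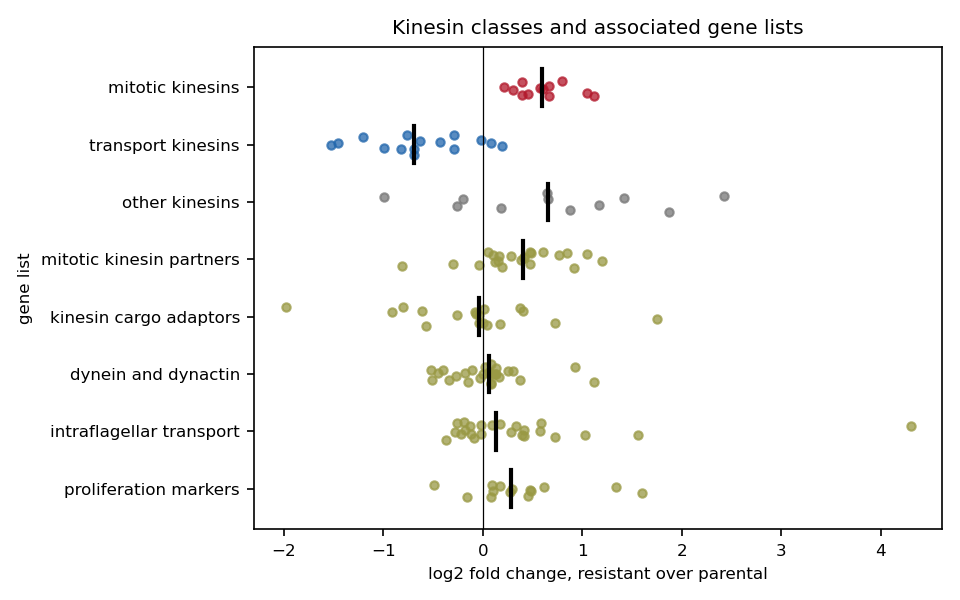
Log2 fold change of resistant over parental cells for each gene (points) of the kinesin classes and of the lists of associated genes, with the list median as a black bar. All 12 mitotic kinesins lie above 0 and 13 of 15 transport kinesins below it, while adaptors, dynein and intraflagellar transport genes lie on both sides.

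Some kinesins lie in chromosomal stretches whose genes moved together, so the median log2 fold change of the 10 nearest tested genes on each side was set beside each member. In GRCh38, KIF5B lies on chromosome 10 from 32009010 to 32056431, where its neighbours had a median of -0.81, close to its own -0.77. KIF3B (chromosome 20 from 32277664 to 32335011) had -0.43 beside neighbours at -0.39. KIF16B (chromosome 20 from 16272104 to 16573434) fell more than its neighbours, with -1.204 against -0.67. With the neighbour median subtracted, KIF5B (0.039, limma adjusted p = 0.276) and KIF3B (-0.044, limma adjusted p = 0.254) were no longer called, and KIF16B stayed lower (-0.54, limma adjusted p = 1.48e-10). On the other arm of chromosome 10, KIF11 (chromosome 10 from 92593286 to 92655395) and KIF20B (chromosome 10 from 89701610 to 89774939) lie among neighbours at 0.36 and 0.50, and kept 0.75 and 0.55 after subtraction. KIF3C (chromosome 2 from 25926596 to 25982749), KIF1C (chromosome 17 from 4997948 to 5028401), KIF26A (chromosome 14 from 104138723 to 104180894) and KIF13B on chromosome 8 lie among neighbours whose medians were between -0.052 and 0.12. KIF19 (chromosome 17 from 74326210 to 74355820) rose where its neighbours had a median of -1.302. After subtraction all 12 mitotic kinesins were still called higher (median 0.57), and of the transport kinesins 11 were lower and 1, KIFC2, higher (median -0.54). Of the 17759 genes with neighbours, 64.7% were called after subtraction, 31.5% higher and 33.2% lower. These p-values take the neighbour median as known, and KIF1A (0.038) and KIF7 (-0.095) were no longer called while KIF13A (-0.095) was called lower.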

How the data were processed

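Poly(A) RNA from 2 vincristine-resistant and 2 parental RD libraries was sequenced, and 1 table of the whole series was deposited. The submitters' processing notes name DESeq2, featureCounts from Subread 1.5.2, STAR 2.5.2b and bcl2fastq 2.17, and the build GRCh38, without their roles. Which annotation and which strand setting served for counting is not given in the sources used here. Deposited expression values are of a signal unit: within each library 100% of them are whole multiples of 1 step, within a tolerance of 0.01 reads, as gene counts divided by a size factor would be. The smallest mean of a gene in the deposited table is 9.98 normalized counts. The log2 fold changes and p-values deposited by the authors were used only for comparison and are named as theirs.

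From these values, log2(value + 1) was tested with limma 3.58.1 (R 4.3.3, trend) over 18330 genes that reached 10 normalized counts in 2 or more libraries, with Benjamini-Hochberg adjustment and a threshold of 0.05. Alternatives used edgeR 4.0.16, DESeq2 1.42.0, limma-voom and other filters, pseudocounts and scalings. Gene positions and exon lengths came from GENCODE on GRCh38, where 96.9% of the gene IDs matched, and promoters from RefSeq.

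Members and gene lists were chosen with earlier results of these data known. Values were given for called mitotic and transport kinesins by size of change (up to 10 per class, at a mean no lower than 100 in the higher group), the 4 largest changes among other kinesins, the highest level per kilobase in each class, members not called with a mean of 1000 or more and up to 3 genes per list by adjusted p. Further members were added for completeness. CENPE, PRC1, RACGAP1, KIFAP3, KLC1, KLC4, MAPRE1, ANLN, AURKA, LIN54, MYOD1, SYT1 and SYN1 were chosen after their values were seen. KIF2B, KIF4B, KIF12 and KIF25 were not analysed here. With 2 libraries per group the precision rests on the spread pooled over genes. The coefficient of variation between libraries (square root of the edgeR common dispersion) was 2.38%, a spread that may be technical. Library totals were 58861281 and 67270948 reads in resistant and 67690557 and 65818879 in parental libraries. Binomial intervals cover counting error only.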

Additional observations from a re-analysis of the deposited data

How the results depend on the processing

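The 12 mitotic kinesins were higher under each pseudocount, filter, tool and scaling tried except the test against 1.2-fold and the dispersion of 0.01, which called 10 of them. Against 1.2-fold, 3380 genes were called higher and 3414 lower, with 0 transport kinesins higher, 1 other kinesin lower, 1 mitotic partner lower, 2 dynein and dynactin genes higher and 5 lower, 0 intraflagellar transport genes lower, and 6 proliferation markers higher and 1 lower. With the dispersion of 0.01, 3880 genes were lower, with 0 transport kinesins higher, 1 other kinesin lower, 1 mitotic partner lower, 3 dynein and dynactin genes higher and 5 lower, 1 intraflagellar transport gene lower, and 6 proliferation markers higher and 1 lower. Both are stricter by construction. Scaling to the same total gave a transport median of -0.66, and scaling without the 20 most abundant genes -0.65. With the neighbour median subtracted, the transport median was -0.54, the class difference 1.10, 7 dynein and dynactin genes were higher, and 1 mitotic partner was lower, ANLN (-0.34), which was not called before, while KPNA2 (0.58) and MAPRE1 (0.10) became higher. The sign also turned for KIF5B (0.039), CCDC40 (0.11) and KRT19 (-0.34), and in all for 18 of the 105 called genes of the associated and marker lists. With a trend on GC content and length subtracted, an alternative chosen after seeing the data, 2 transport kinesins were higher, 1 other kinesin was lower, the transport median was -0.64, the class difference 1.204 and MYOD1 was higher (0.10). The cause was not tested. Leaving out 1 library at a time gave mitotic medians of 0.55 to 0.63, transport medians of -0.71 to -0.67, class differences of 1.22 to 1.35, 1 to 2 transport kinesins higher, 6 to 14 dynein and dynactin genes higher and 5 to 9 intraflagellar transport genes lower. The dynein and dynactin count was 6 without parental replicate 1, and the intraflagellar transport count 5 without parental replicate 2. The transport count of 2 was without resistant replicate 1.

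Same-numbered libraries had a correlation of deviations over genes of -0.010, so no large shared shift was seen. This value cannot show whether the samples were prepared in pairs. With the replicate number as a block, 5926 genes were higher and 6218 lower, and 21 kinesins were higher and 15 lower, so no kinesin call changed. Low counts limit KIF19, and 2 libraries per group limit every p-value.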
